A study of Mus musculus with 24 samples.

Results

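The enzymes and regulators of de novo lipogenesis in mouse liver were followed as a set of 10 genes, Fasn, Acaca, Acacb, Acly, Scd1, Elovl6, Elovl5, Me1, Thrsp and Pnpla3. The set was a list of gene names of the pathway. All 10 genes were found among the 21755 genes counted in p16-3MR livers. In the wild-type table of 12643 genes, 7 of the 10 could be assigned, because the gene labels of that table lack 9 of the lower-case letters and a label was used only where it matched 1 gene symbol. The labels left for Fasn, Acly and Me1 matched 5, 3 and 22 symbols, and these 3 genes are described in p16-3MR livers only.

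Liver RNA came from 24 mice, 12 per genotype, with 3 females given ganciclovir (GCV), 3 females given vehicle (VEH, pH11 water), 3 males given GCV and 3 males given VEH in each genotype. The p16-3MR mouse carries a transgene in which the p16 (Cdkn2a) promoter drives a viral thymidine kinase, so that GCV, which that kinase turns into a toxin, kills cells that express the transgene. Treatment of the p16-3MR mice began at an age of 16 to 18 months and that of the wild-type mice at 6 months, with injections on 5 days of each month and a labelled GCV dose of 150 mg/kg, although the study's methods give another dose. Wild-type mice have no transgene, and their GCV groups received the drug without it, from a younger age and, by the study's methods, over a shorter course. The p16-3MR libraries form batch 1 and the wild-type libraries batch 2, so genotype, age at start, length of treatment and batch cannot be told apart, and the genotypes were analyzed separately. The tissue was whole liver, in which fewer cells of a type and less RNA per cell cannot be told apart.

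Libraries held 5005760 to 7160172 counts in p16-3MR livers and 3084517 to 5667904 in wild-type livers. The p16-3MR GCV-treated female 33 stood apart, with 64.0% of its counts from the mitochondrially encoded genes against 12.3% to 22.4% in the other 11 p16-3MR livers, and the p16-3MR GCV-treated male 32 had the lowest sum of 8 hepatocyte markers of the 12, at 26717 CPM against 42513 to 163070 CPM. Levels are given as CPM, counts scaled to a common library total, after TMM scaling, a correction for RNA composition between libraries. Cdkn2a itself lay between 0 and 0.683 CPM in the 12 p16-3MR livers, near the detection limit. The biological coefficient of variation, the relative spread between livers of a group, was 0.558 in p16-3MR livers and 0.166 in wild-type livers.

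De novo lipogenesis turns surplus carbohydrate into fatty acids in the cytosol of hepatocytes and adipocytes. Acly, the ATP citrate lyase, releases acetyl-CoA from citrate, the carboxylases Acaca and Acacb make malonyl-CoA, the fatty acid synthase Fasn builds palmitate from it, and Me1, the cytosolic malic enzyme, supplies NADPH. Elovl6 and Elovl5 lengthen fatty acids and Scd1 places a double bond in them. In liver the pathway is known for its induction by feeding, through the insulin-responsive factor SREBP-1c and the carbohydrate-responsive factor ChREBP. On the mm10 build, Fasn lies at chr11:120805846-120824547, Scd1 at chr19:44394455-44407879, Elovl6 at chr3:129532355-129638495, Elovl5 at chr9:77917364-77984519, Thrsp at chr7:97412938-97417730 and Pnpla3 at chr15:84167837-84187236.

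The promoter sequences of the members were read from RefSeq (build GRCm38.p6), which held 10 windows for 9 of the 10 genes, 2 of them for Me1. The windows of Acaca (from chr11:84195188), Acacb (from chr5:114165268) and 1 of those of Me1 (from chr9:86687278) lay inside the genes. These genes begin at 84129672, 114146535 and, on the minus strand, 86695953. The motif counts of these windows therefore describe start sites other than the outermost one. The 250 bases before the start site were searched on both strands for 4 motifs that factors of this pathway are known to use, the E-box CACGTG, the sterol response element TCACNCCAC, the CCAAT box and the GC box GGGCGG. The E-box was found in 1 of the 10 windows, against 6.02% of all 32851 windows of that length. The sterol response element was found in 0 of 10 against 1.05%, the CCAAT box in 6 of 10 against 33.8%, and the GC box in 3 of 10 against 32.7%. The 3 windows given are that of Fasn, which has 3 CCAAT matches, that of Elovl5, the window with the E-box, and that of Pnpla3, which has CCAAT and GC boxes and whose gene differed most between the sexes in wild-type livers. Bases in capitals are motif matches, and in the Fasn window a CCAAT and its reverse complement overlap.
Fasn (chr11:120824548-120824797, minus strand): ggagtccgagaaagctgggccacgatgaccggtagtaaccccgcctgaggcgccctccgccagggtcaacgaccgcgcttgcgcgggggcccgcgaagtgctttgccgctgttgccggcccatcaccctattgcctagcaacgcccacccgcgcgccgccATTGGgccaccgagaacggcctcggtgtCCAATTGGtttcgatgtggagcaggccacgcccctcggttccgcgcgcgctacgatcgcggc
Elovl5 (chr9:77917115-77917364, plus strand): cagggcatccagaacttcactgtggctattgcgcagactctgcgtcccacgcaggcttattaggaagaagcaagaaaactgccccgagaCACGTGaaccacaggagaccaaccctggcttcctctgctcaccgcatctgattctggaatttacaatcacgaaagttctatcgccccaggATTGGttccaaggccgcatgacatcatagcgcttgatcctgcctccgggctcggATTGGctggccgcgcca
Pnpla3 (chr15:84167566-84167815, plus strand): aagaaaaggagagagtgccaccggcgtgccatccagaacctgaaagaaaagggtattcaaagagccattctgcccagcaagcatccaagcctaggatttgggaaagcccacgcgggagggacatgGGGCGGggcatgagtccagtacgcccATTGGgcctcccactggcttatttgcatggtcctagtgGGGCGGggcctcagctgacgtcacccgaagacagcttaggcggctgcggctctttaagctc

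The most visible feature of the 10 genes in p16-3MR livers was a shared high or low level within single livers, which cut across the treatment groups. For each gene the log2 CPM of a liver was set against the gene's mean over 12 livers, and the mean of these deviations over the 10 genes was taken for each liver. This mean was -2.57 in GCV-treated female 33 and -2.66 in GCV-treated male 32, while the other 10 livers lay between -0.73 and 1.63. The highest means were those of VEH-treated males 25 and 26, at 1.63 and 1.43, of GCV-treated male 34, at 1.27, and of GCV-treated female 35, at 1.10. Each treated group therefore held a liver at the bottom of the order and a liver near its top. Female 33 was among the lowest 2 livers for 8 of the 10 genes and male 32 for 9, whereas males 25, 26 and 34 were each among the highest 4 for 9 genes.

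**Figure D1:**
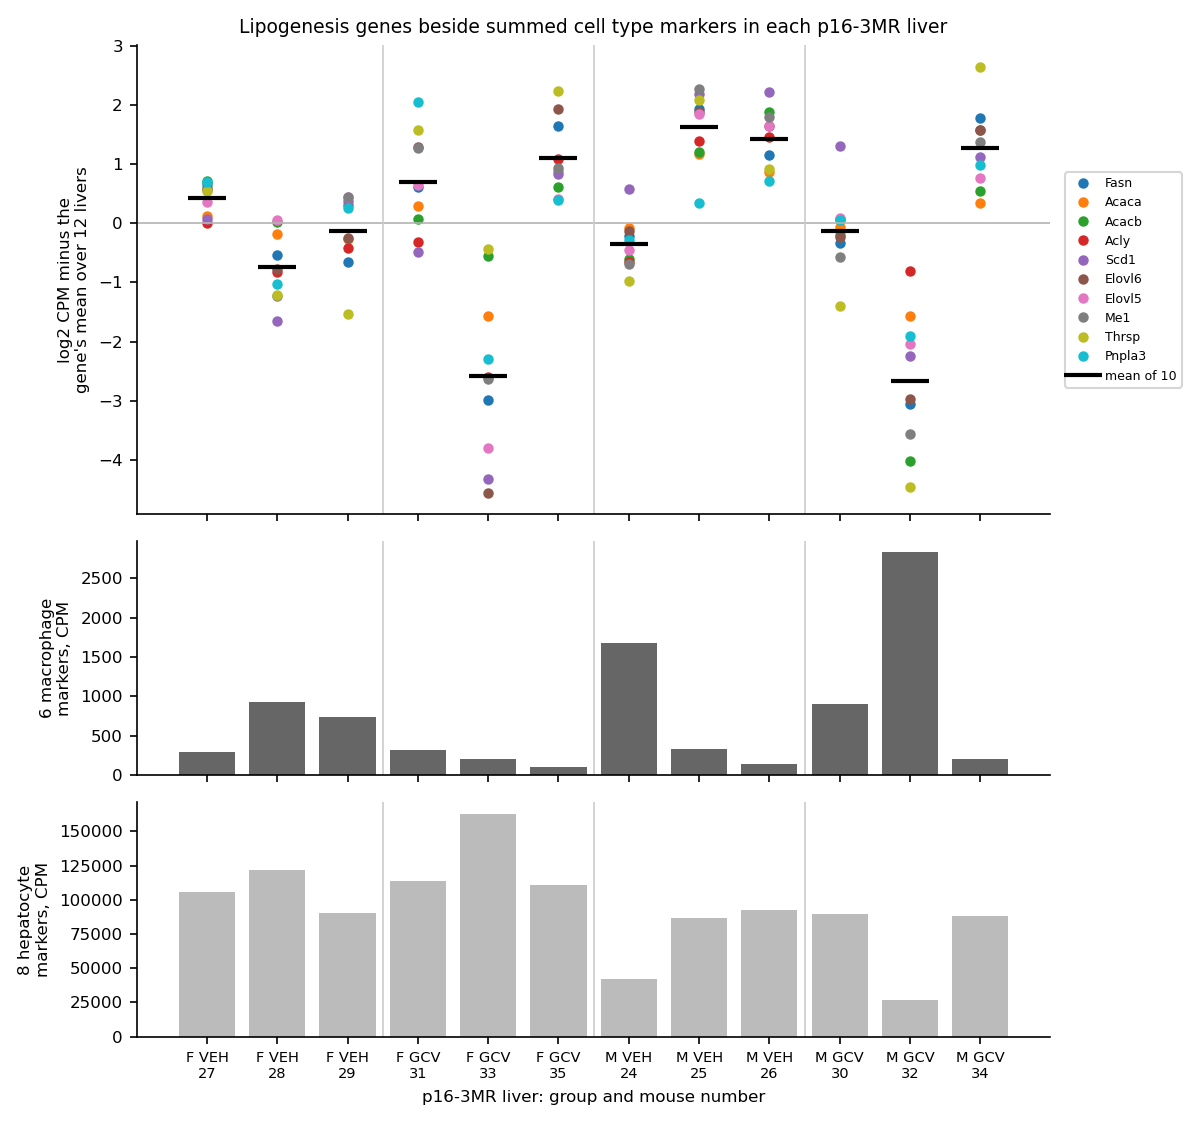
Deviation of each lipogenesis gene from its own mean over the 12 p16-3MR livers (log2 CPM, top; the black bar is the mean of 10 genes), above the summed CPM of 6 macrophage markers and of 8 hepatocyte markers in the same livers. The genes sit together within a liver, lowest in GCV-treated female 33 and GCV-treated male 32, and male 32 also has the highest macrophage sum, at 2828 CPM.

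Marker sums also differed between the livers, and only some followed this order. The sum of 6 macrophage markers was 2828 CPM in GCV-treated male 32 and 1683 CPM in VEH-treated male 24, 904 to 932 CPM in GCV-treated male 30 and VEH-treated female 28, and 108 to 213 CPM in GCV-treated female 35, VEH-treated male 26 and GCV-treated male 34. By group it ran from 108 to 322 CPM in GCV-treated females, from 291 to 932 in VEH-treated females, from 213 to 2828 in GCV-treated males and from 150 to 1683 in VEH-treated males. Livers with a low sum thus tended to have high lipogenesis genes, except GCV-treated female 33, which had a macrophage sum of 214 CPM. The hepatocyte sum did not follow the order in scaled CPM, since it was lowest in male 32 and highest of the 12 in female 33, at 163070 CPM. A low TMM factor raises CPM, and that of female 33 was 0.259, against 0.850 to 1.80 in the other 11 livers. The part of this factor in the rank of female 33 was not tested. The stellate cell and sinusoidal endothelial sums were highest in male 32, at 1247 and 448 CPM, against 162 to 470 CPM and 126 to 297 CPM in the other 11 livers, and stood at 166 and 192 CPM in female 33. The cholangiocyte sum ran from 5.41 CPM in female 33 to 134 CPM in male 32, and the lymphocyte sum from 2.51 to 65.2 CPM with 17.0 and 24.4 CPM in these 2 livers. The adipocyte markers, which belong to a second lipogenic cell type, summed to 1.51 to 12.5 CPM in 11 livers and to 90.4 CPM in female 33, with Adipoq at 0 to 2.11 CPM and at 0 in 9 of the 12 livers. The part of cell composition and of the mitochondrial share in the levels below was not tested.

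Fasn, the synthase at the center of the pathway, ranged 32.1-fold over the 12 p16-3MR livers. In females it stood at 486, 212 and 194 CPM with VEH and at 468, 38.6 and 958 CPM with GCV. In males it stood at 264, 1176 and 688 CPM with VEH and at 245, 36.7 and 1056 CPM with GCV. The GCV groups reached lower than the VEH groups in both sexes, and of the 6 VEH values only that of male 25 lay outside the range of the GCV group of its sex.

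The steps before the synthase also had low levels in GCV-treated female 33 and GCV-treated male 32, although the order of the other livers differed between genes. Acly stood at 288, 161 and 215 CPM in VEH-treated females, at 228, 47.1 and 610.3 CPM in GCV-treated females, at 181, 755 and 786 CPM in VEH-treated males and at 300.0, 162 and 857 CPM in GCV-treated males. Acaca, the carboxylase that feeds synthesis, stood at 97.2, 79.1 and 74.6 CPM, at 110.5, 30.1 and 166 CPM, at 85.2, 203 and 165 CPM and at 86.0, 30.1 and 114 CPM in the same order of groups. Both genes overlapped between GCV and VEH in each sex. Acacb, the carboxylase at the mitochondrial membrane whose malonyl-CoA restrains fatty acid oxidation, reached 103 and 164 CPM in VEH-treated males 25 and 26 and fell to 2.44 CPM in GCV-treated male 32, while the 6 females lay between 30.1 and 73.2 CPM. Me1 lay between 33.3 and 116 CPM in VEH-treated females and at 190.5, 12.4 and 149.6 CPM in GCV-treated females. In males Me1 was 48.5, 377 and 273 CPM with VEH and 52.6, 6.34 and 203 CPM with GCV. GCV-treated female 33 and GCV-treated male 32 were again the lowest livers of their groups in each of these 4 genes.

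The ratio of the highest to the lowest p16-3MR liver was 96.2 for Elovl6, 93.9 for Scd1 and 51.4 for Elovl5 among the modifying enzymes, and 67.3 for Acacb and 59.5 for Me1. Scd1 was 3032, 916 and 3755 CPM in VEH-treated females and 2066, 144 and 5163 CPM in GCV-treated females. In males Scd1 was 4313, 13142 and 13492 CPM with VEH and 7135, 609 and 6319 CPM with GCV. The 3 VEH-treated males lay above the 3 VEH-treated females, whereas GCV-treated male 32 lay below every female but 33. Elovl6, which lengthens palmitate, was 175, 67.7 and 97.7 CPM in VEH-treated females and 285, 4.63 and 446 CPM in GCV-treated females. It was 106, 428 and 365 CPM in VEH-treated males and 99.3, 14.5 and 346 CPM in GCV-treated males. Female 33 thus had the lowest and females 35 and 31 had higher Elovl6 than each VEH-treated female. Elovl5, which acts mainly on polyunsaturated fatty acids, was even among VEH-treated females at 242 to 316 CPM and ran from 16.2 to 365 CPM in GCV-treated females, from 169 to 834 CPM in VEH-treated males and from 55.9 to 395 CPM in GCV-treated males.

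Thrsp, known as Spot 14, a nuclear and cytosolic protein that promotes lipogenesis and responds to thyroid hormone, spread furthest, 149-fold from lowest to highest liver. It was 125, 37.0 and 29.4 CPM in VEH-treated females and 257, 63.3 and 405 CPM in GCV-treated females. It was 43.6, 365 and 162 CPM in VEH-treated males and 32.4, 3.61 and 539.6 CPM in GCV-treated males. Of the GCV-treated females, 31 and 35 exceeded all 3 VEH-treated females and 33 exceeded 28 and 29 only. Pnpla3, a lipid droplet protein related to triglyceride lipases, was counted 0 to 31 times per p16-3MR liver (0 to 5.98 CPM) and its levels are near the detection limit.

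**Figure D2:**
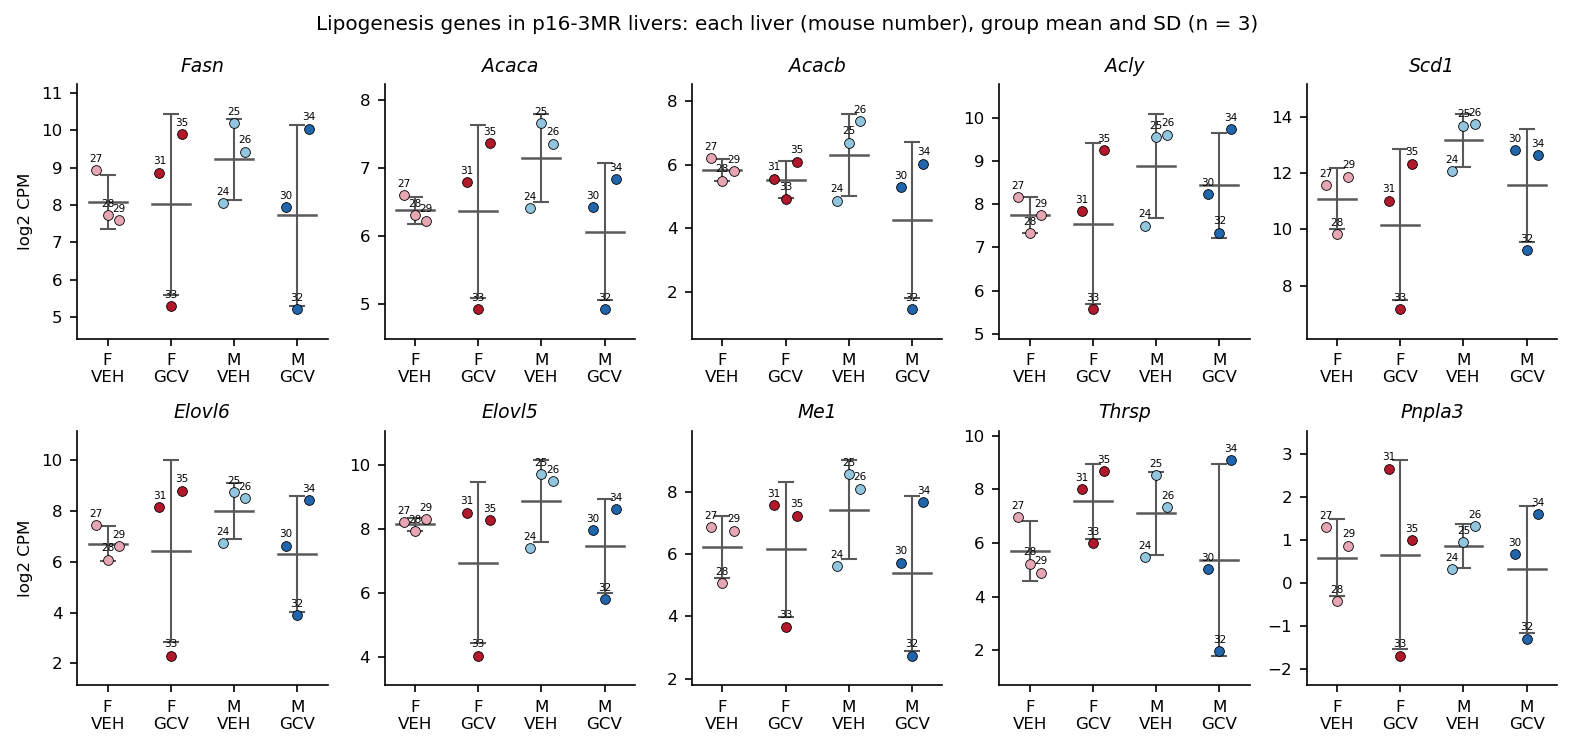
Level of each of the 10 genes in the 12 p16-3MR livers (log2 CPM; each point is a liver with its mouse number, the bar is the group mean and the whiskers the SD, n = 3). GCV-treated female 33 and GCV-treated male 32 pull their groups down in nearly every panel, and GCV and VEH livers overlap.

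The first question was whether GCV changed the pathway in p16-3MR livers. In females 7 of the 10 genes had a log2 fold change above 0 and 3 below, with a median of 0.44, against 46.1% of all genes above 0 and a median of 0. The 10 values ran from -0.31 for Elovl5 (SE 0.89) to 1.92 for Thrsp (SE 1.28), and those of Acacb, Scd1, Fasn and Elovl6 were -0.25, -0.06, 0.72 and 1.11. The fitted direction rests on how livers are averaged, since the group means of log2 CPM of GCV-treated females were above those of VEH-treated females for 2 genes, Thrsp (7.55 against 5.70) and Pnpla3 (0.65 against 0.58), and below them for the other 8, with a median difference of -0.13. Thrsp had the lowest adjusted p-value of the 10, 0.725 by edgeR's quasi-likelihood test, adjusted over all genes. In females 0 of the 10 genes passed the adjusted threshold of 0.05, where 0% of all 21755 genes did, and 0 of the 10 had an unadjusted p below 0.05, where 7.37% did. DESeq2 and limma-voom called 0 of the 10 as well, although DESeq2 called 90 genes and limma-voom 7 genes in all. Other measures separated the treatment groups of these females without overlap. The stellate cell sum was 166 to 284 CPM with GCV and 308 to 357 CPM with VEH, and the TMM factor 0.259 to 0.990 and 1.04 to 1.14. Genes detected numbered 13409 to 16870 and 17147 to 17727, and library totals were 5005760 to 6101562 and 6364540 to 7160172 counts. The part of these measures in the fold changes was not tested.

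Without female 33 and male 32, a choice made after the levels were seen, Elovl6 and Thrsp came to 1.69 and 2.37 in females, with unadjusted p-values of 0.0206 and 0.036 and an adjusted p-value of 0.765 for both by edgeR, where 6.4% of all genes had an unadjusted p below 0.05 in that fit, and Scd1 and Elovl5 turned to 0.49 and 0.24. With single livers left out, Elovl6 ran from 0.36 without GCV-treated female 35 to 1.63 without GCV-treated female 33, and Thrsp from 1.33 without GCV-treated female 35 to 2.87 without VEH-treated female 27. The direction of Fasn in females rested on GCV-treated female 35, without which its log2 fold change was -0.23. The limits of these differences were wide, and the approximate 95% interval of Fasn in females ran from -1.38 to 2.82.

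In p16-3MR males the fitted log2 fold change was below 0 for 9 of 10 genes, with a median of -0.97 against 0.04 over all genes, of which 52.8% were above 0. By group means of log2 CPM all 10 were lower with GCV, with a median difference of -1.55. By this measure most of the genes were lower with GCV in both sexes. The means include female 33 and male 32, each the lowest of its group in all 10 genes, and were not taken without them. Acacb had the lowest value, -1.48 (SE 0.82), followed by Me1 at -1.42 (SE 1.08), and Scd1 and Acaca stood at -1.14 and -0.98. Without female 33 and male 32 these values were -0.93 for Acacb, -0.87 for Me1, -0.62 for Scd1 and -0.59 for Acaca. With single livers left out, Acacb ran from -2.27 without GCV-treated male 34 to -0.90 without VEH-treated male 26, and Me1 from -2.99 without GCV-treated male 34 to -0.88 without VEH-treated male 25. Thrsp stood at 0.01 (SE 1.24), and its sign changed with most alternative settings. By edgeR 0 of the 10 genes passed the adjusted threshold in males, where 0% of all genes did, and 0 had an unadjusted p below 0.05, where 1.91% did. DESeq2 and limma-voom with quality weights also called 0. Limma-voom gave 7 of the 10 an unadjusted p below 0.05, where it gave 23.1% of all genes one. The cholangiocyte sum separated the treatment groups of these males, at 78.8 to 134 CPM with GCV and 41.3 to 57.8 CPM with VEH. Its part in the fold changes was not tested.

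The response of females minus that of males was above 0 for all 10 genes, from 0.80 for Acly to 2.08 for Elovl6 (SE 1.60), with a median of 1.28 against -0.04 over all genes, of which 48.4% were above 0. This difference is itself a test of a sex-specific response, and by edgeR 0 of the 10 genes passed it, where 0% of all genes did. Unadjusted, 0 of the 10 had a p below 0.05, where 3.78% of all genes did, and the lowest adjusted p-value was 0.976. DESeq2 and limma-voom called 0 as well. Limma-voom gave 5 of the 10 an unadjusted p below 0.05, where it gave 15.5% of all genes one. Acly turned to -0.29 without GCV-treated female 35. The 10 genes shared their livers and moved together within them, so they are not 10 independent observations.

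VEH-treated p16-3MR females were lower than VEH-treated males in all 10 genes. The log2 difference ran from -2.01 for Scd1 (SE 1.17) to -0.19 for Pnpla3 (SE 1.04), with Acly at -1.38 and Thrsp at -1.57, and its median was -1.31 against -0.05 over all genes, of which 43.3% were above 0. Scd1 was the only member whose VEH-treated females and males did not overlap, a separation with females lower that 5.13% of all genes showed. Library totals separated these groups too, at 6364540 to 7160172 counts in females and 5211559 to 6135845 in males. The hepatocyte sum overlapped, at 90676 to 121722 CPM in females and 42513 to 92870 CPM in males. The part of these measures in the sex differences of p16-3MR livers was not tested. By edgeR 0 of the 10 passed the adjusted threshold, where 0.12% of all genes did, and 0 had an unadjusted p below 0.05, where 2.74% did. In the fit without female 33 and male 32, 4 of the 10 had an unadjusted p below 0.05, where 3.98% of all genes did, with 0 called. Over 7 alternative settings, that fit among them, Scd1 ran from -2.47 to -1.98 and Acly from -1.63 to -1.35. Thrsp ran from -2.11 to -1.55 and Pnpla3 from -0.56 to -0.17. Averaged over both treatments, 9 of 10 genes were lower in females, where 44.2% of all genes were above 0, Scd1 most at -1.47 (SE 0.81) and Pnpla3 alone higher at 0.45 (SE 0.74). By group means of log2 CPM 7 of the 10 were lower, and Acacb, Pnpla3 and Thrsp were higher. By edgeR 0 of the 10 passed there, where 0.303% of all genes did, and 0 had an unadjusted p below 0.05, where 7.05% did. DESeq2 and limma-voom called 0 of the 10 in both sex comparisons. At an unadjusted p below 0.05, limma-voom gave 7 of the 10 among VEH livers, where 10.6% of all genes were, and 2 over both treatments, where 12% were. DESeq2 gave 1 in each, where 2.41% and 6.9% of all genes were.

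Wild-type livers, from younger mice in a separate batch, were far more even. The ratio of the highest to the lowest liver was 1.66 for Acaca, 3.65 for Acacb, 2.46 for Scd1, 2.81 for Elovl6, 2.65 for Elovl5 and 5.78 for Thrsp. Each marker sum of wild-type livers counted only the markers with usable labels, so its size cannot be set beside that of p16-3MR livers. Macrophage markers summed to 84.5 to 154 CPM and hepatocyte markers to 13215 to 18920 CPM over the 12 livers. Treatment groups overlapped in both sums within each sex, except that the hepatocyte sum was 16887 to 17754 CPM in GCV-treated males and 18051 to 18920 CPM in VEH-treated males. The adipocyte sum was 14.2 and 12.6 CPM in VEH-treated males 2 and 3 and 0 to 3.08 CPM in the other 10 livers. The part of these marker levels in the results below was not tested.

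Several members had lower levels in the GCV-treated than in the VEH-treated wild-type females sampled. The adjusted threshold was passed by 0 of the 7 members measured when all wild-type livers were fitted with edgeR. Scd1 was 3969, 5066 and 5421 CPM with VEH and 2733, 2680.0 and 2996 CPM with GCV. Acaca was 65.9, 81.8 and 88.9 CPM with VEH and 62.4, 53.5 and 55.6 CPM with GCV. Elovl5 was 375, 379 and 455 CPM with VEH and 298, 279 and 315 CPM with GCV. In these 3 genes each GCV-treated female lay below each VEH-treated female, a separation in that direction that 4.95% of all genes showed. Elovl6 was 203, 280.5 and 201 CPM with VEH and 150.2, 139.8 and 244 CPM with GCV, and Thrsp was 393, 356 and 285 CPM with VEH and 246, 251 and 394 CPM with GCV. These 2 genes overlapped between the groups.

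The log2 fold change was -0.78 for Scd1 (SE 0.23), -0.46 for Acaca (SE 0.14), -0.44 for Elovl5 (SE 0.19), -0.35 for Elovl6 (SE 0.19) and -0.22 for Thrsp (SE 0.45). All 7 members measured were below 0, the least being Acacb at -0.06, with a median of -0.44 against 0 over all genes, of which 49.2% were above 0. By edgeR 0 of the 7 passed the adjusted threshold, where 0.00791% of all 12643 genes did, and 3 had an unadjusted p below 0.05, where 4.56% did. The unadjusted p-values were 0.00258 for Scd1, 0.00355 for Acaca and 0.0325 for Elovl5, and the adjusted ones 0.629, 0.737 and 1. DESeq2 and limma-voom called 0 of the 7.

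When only the 6 females were fitted, Scd1 and Elovl5 were called, at -0.79 and -0.44 with adjusted p-values of 1.38e-06 and 0.0331 by edgeR. In that fit 44 of all 12643 genes were called, and 6.11% had an unadjusted p below 0.05. Over the other tools, scalings and the low-count filter, all with 12 livers, the adjusted p of Scd1 ran from 0.413 to 0.915 and that of Elovl5 from 0.682 to 1.

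Wild-type males fell into no such order by treatment. Scd1 was 3038, 6461 and 6082 CPM in VEH-treated males 1, 2 and 3 and 3269, 6589 and 3613 CPM in GCV-treated males 1, 2 and 3. Thrsp was 687, 148 and 149.7 CPM in the VEH-treated and 646, 204 and 854 CPM in the GCV-treated males of the same numbers. The livers with high Thrsp, VEH-treated male 1 and GCV-treated males 1 and 3, were those with low Scd1, and they were also those with low Elovl5, at 172, 173 and 216 CPM against 319.6, 348 and 285 CPM in the other 3. Elovl6 was 133, 99.7 and 105 CPM with VEH and 119, 146 and 186 CPM with GCV and did not follow this split. Outside the set, Elovl3, an elongase with higher levels in males, was 58.8, 71.1 and 51.3 CPM in the 3 livers with high Thrsp and 136, 143 and 93.1 CPM in the other 3. Other measures separated the same livers. The macrophage sum was 127, 112 and 131 CPM in the 3 livers with high Thrsp against 102, 91.3 and 84.5 CPM, and the adipocyte sum 0.532, 1.26 and 1.83 CPM against 14.2, 12.6 and 3.08 CPM. The TMM factor was 0.835, 0.845 and 0.866 against 0.922, 0.912 and 0.975, and the number of genes detected 10970, 10827 and 10899 against 11066, 11163 and 11222. Library totals were 4499887, 3766016 and 3782717 counts against 4963575, 5667904 and 5001536. The split was drawn after the levels were seen, and the share of all genes that separate the same livers was not counted. The part of these measures in the split was not tested.

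**Figure D3:**
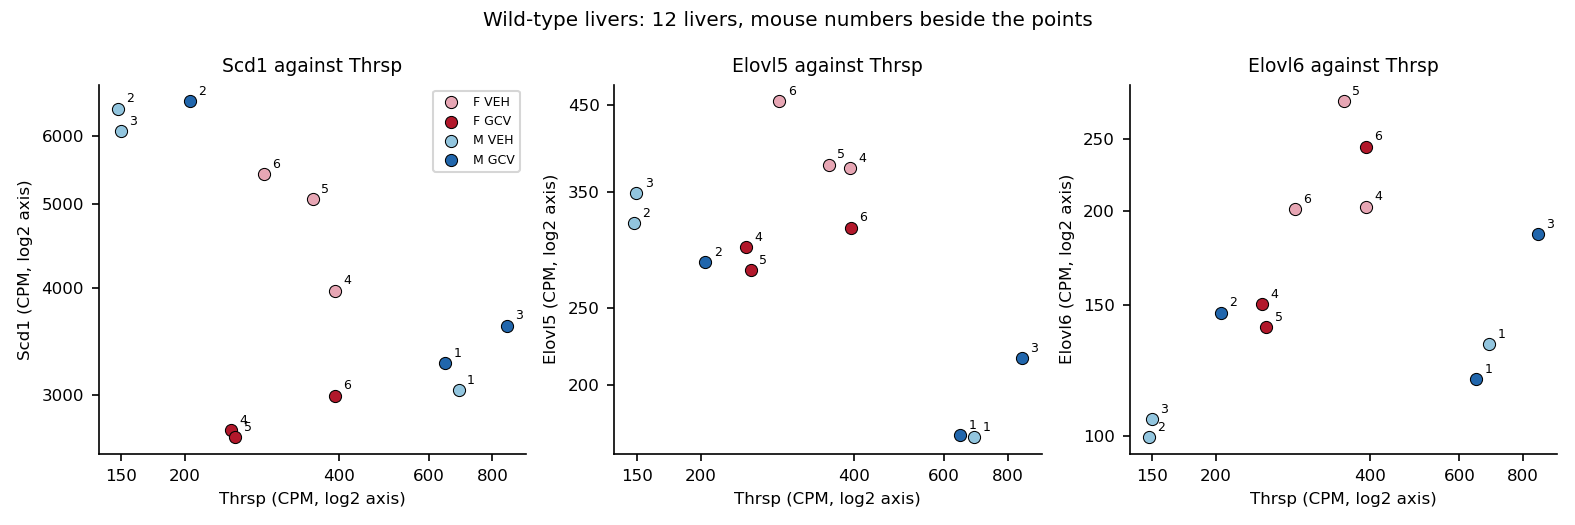
Scd1, Elovl5 and Elovl6 against Thrsp in the 12 wild-type livers (CPM on log2 axes; each point is a liver with its mouse number, colored by group). VEH-treated male 1 sits with GCV-treated males 1 and 3 at high Thrsp and low Scd1 and Elovl5, apart from the other 3 males.

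In wild-type males the log2 fold change with GCV was 0.79 for Thrsp (SE 0.45), 0.53 for Acacb (SE 0.27), 0.42 for Elovl6 (SE 0.19), -0.21 for Scd1 (SE 0.23) and -0.32 for Elovl5 (SE 0.19). The median of the 7 members was 0.17 against 0.0019 over all genes, of which 50.2% were above 0. By edgeR 0 of the 7 passed the adjusted threshold, where 0% of all genes did, and Elovl6 alone had an unadjusted p below 0.05, 0.0406 (adjusted 0.889), where 5.06% of all genes did. DESeq2 and limma-voom called 0 of the 7. Without VEH-treated male 1, the VEH-treated male with high Thrsp, Thrsp came to 1.93 with an adjusted p of 0.00862 by edgeR. Over the 12 fits that each left out a liver its adjusted p ran from 0.00862 to 1.

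The response of wild-type females minus that of males was below 0 for all 7 members, from -0.12 for Elovl5 to -1.35 for Pnpla3, with a median of -0.60 against -0.01 over all genes, of which 49.1% were above 0. By edgeR 0 of the 7 passed the adjusted threshold, where 0.00791% of all genes did, and Elovl6 (-0.77, SE 0.27) and Acaca (-0.57, SE 0.20) had unadjusted p-values of 0.00924 and 0.00949, where 4.45% of all genes were below 0.05. The adjusted p was 0.982 for both. DESeq2 and limma-voom called 0 of the 7. Thrsp stood at -1.01 (SE 0.63) and at -2.14 without VEH-treated male 1, with an adjusted p of 0.0288 by edgeR that ran up to 1 when other livers were left out. In p16-3MR livers the same difference was above 0 for these 7 genes, but the genotypes form separate batches and were fitted apart and their contrast was not tested.

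Sex differences were called in wild-type livers. Marker sums, scaling and the mitochondrial share separated the sexes too. The hepatocyte sum was 13215 to 14880 CPM in the 6 females and 16887 to 18920 CPM in the 6 males, the stellate cell sum 276 to 340.0 CPM and 216 to 269 CPM, the adipocyte sum 0 to 0.226 CPM and 0.532 to 14.2 CPM, and the TMM factor 1.11 to 1.14 and 0.835 to 0.975. Mitochondrially encoded genes held 4.57% to 5.08% of the counts in females and 3.62% to 4.50% in males. The part of these measures in the sex differences was not tested. Elovl6 was higher in VEH-treated females, at 203, 280.5 and 201 CPM, than in VEH-treated males, at 133, 99.7 and 105 CPM, without overlap and by 2.03-fold (log2 difference 1.02, SE 0.19, edgeR adjusted p 0.00203). Pnpla3 was counted 5, 10 and 12 times in VEH-treated females and 0, 0 and 1 times in VEH-treated males. The ratio of these counts per effective library size was 25, with an exact 95% interval from 4.12 to 1023 that covers counting error only, and the fitted log2 difference was 4.28 (SE 1.11, edgeR adjusted p 0.0307). With the GCV-treated livers included, the 6 females held 38 counts and the 6 males 2, a ratio of 16.9 with an interval from 4.36 to 144. Each of the 6 females was above each of the 6 males, as in 2.31% of all genes.

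By edgeR 2 of the 7 members passed the adjusted threshold among VEH livers, both higher in females, where 3.82% of all genes passed and 1.82% did so higher in females. The balance of directions rests on the scaling, since 230 of the 483 genes called were higher in females with TMM but 1784 of 1925 when libraries were scaled to their totals without mitochondrially encoded genes, which shifts the median of all genes by 0.37. Over both treatments these counts were 492 of 1004 and 3596 of 3805. Acacb at 0.77 (SE 0.26), Elovl5 at 0.52 (SE 0.19) and Acaca at 0.31 (SE 0.14) had unadjusted p-values below 0.05, where 15.2% of all genes did, and adjusted ones of 0.120, 0.162 and 0.2895. VEH-treated females and males did not overlap in Elovl5 either, and 9.82% of all genes separated with females higher. Scd1 at -0.11 (SE 0.23) and Thrsp at 0.08 (SE 0.45) lay within the spread. The median of the 7 was 0.52 against 0.02 over all genes, and 6 of the 7 were above 0, where 52.2% of all genes were. Limma-voom called Acacb in addition, and DESeq2 gave Pnpla3 no adjusted p-value and called Elovl6. Without VEH-treated male 1 the members called were Acacb, Elovl6 and Thrsp, with Thrsp at 1.21, and without VEH-treated male 2 or 3 or VEH-treated female 5 or 6 Elovl6 was the only member called.

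Over both treatments 3 of the 7 members were called, all higher in females, where 7.94% of all genes passed and 3.89% did so higher in females. Of the 7, 5 were above 0, where 53.5% of all genes were. Elovl6 was higher by 0.63 (SE 0.14, adjusted p 0.00397), Elovl5 by 0.46 (SE 0.14, adjusted p 0.0374) and Pnpla3 by 3.60 (SE 0.83, adjusted p 0.00728) by edgeR. Acacb at 0.48 (SE 0.18) and Scd1 at -0.39 (SE 0.16) had unadjusted p-values below 0.05, where 20.1% of all genes did, and adjusted p-values of 0.132 and 0.159. Elovl5 lost its call in 6 of the 12 fits that left out a liver, whereas without VEH-treated male 1 Acacb, at 0.68, and Scd1, at -0.53, were called too. The call of Elovl6 was kept in every one of the 12.

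**Figure D4:**
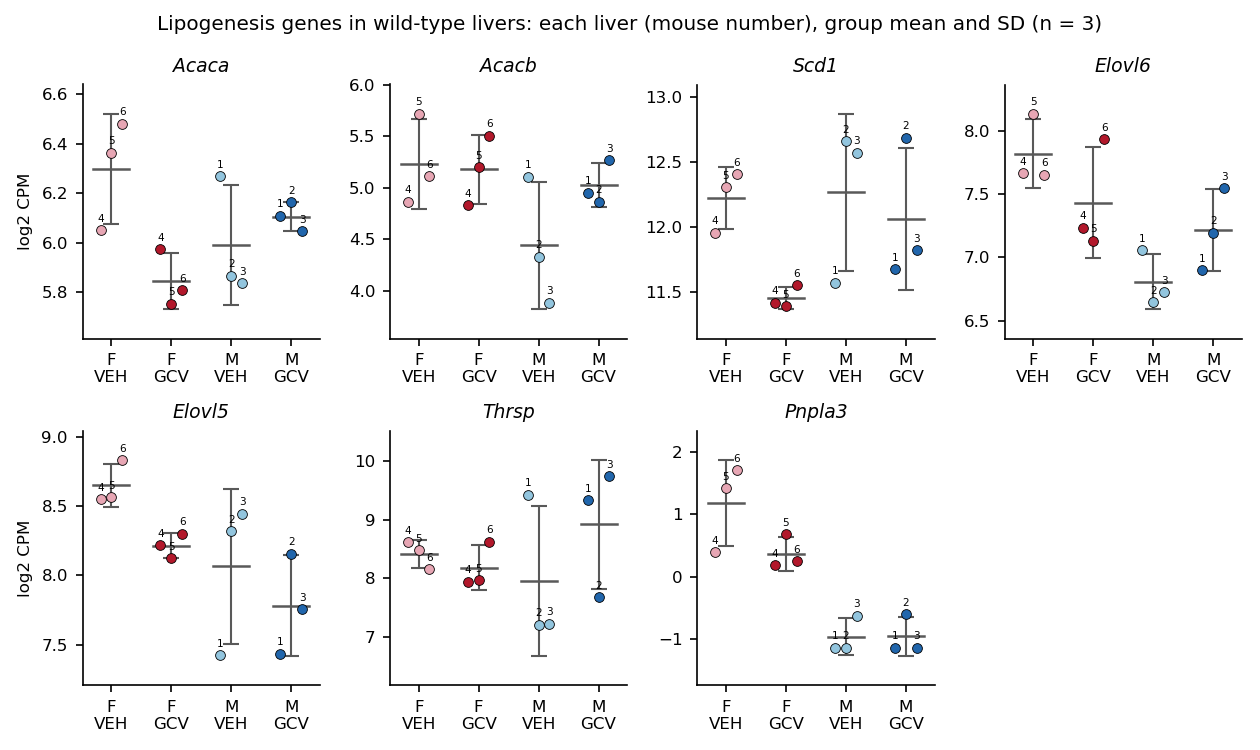
Level of each of the 7 assigned genes in the 12 wild-type livers (log2 CPM; each point is a liver with its mouse number, the bar is the group mean and the whiskers the SD, n = 3). Elovl6 and Pnpla3 are higher in VEH-treated females than in VEH-treated males without overlap, and Scd1, Acaca and Elovl5 are lower in GCV-treated than in VEH-treated females without overlap.

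**Figure D5:**
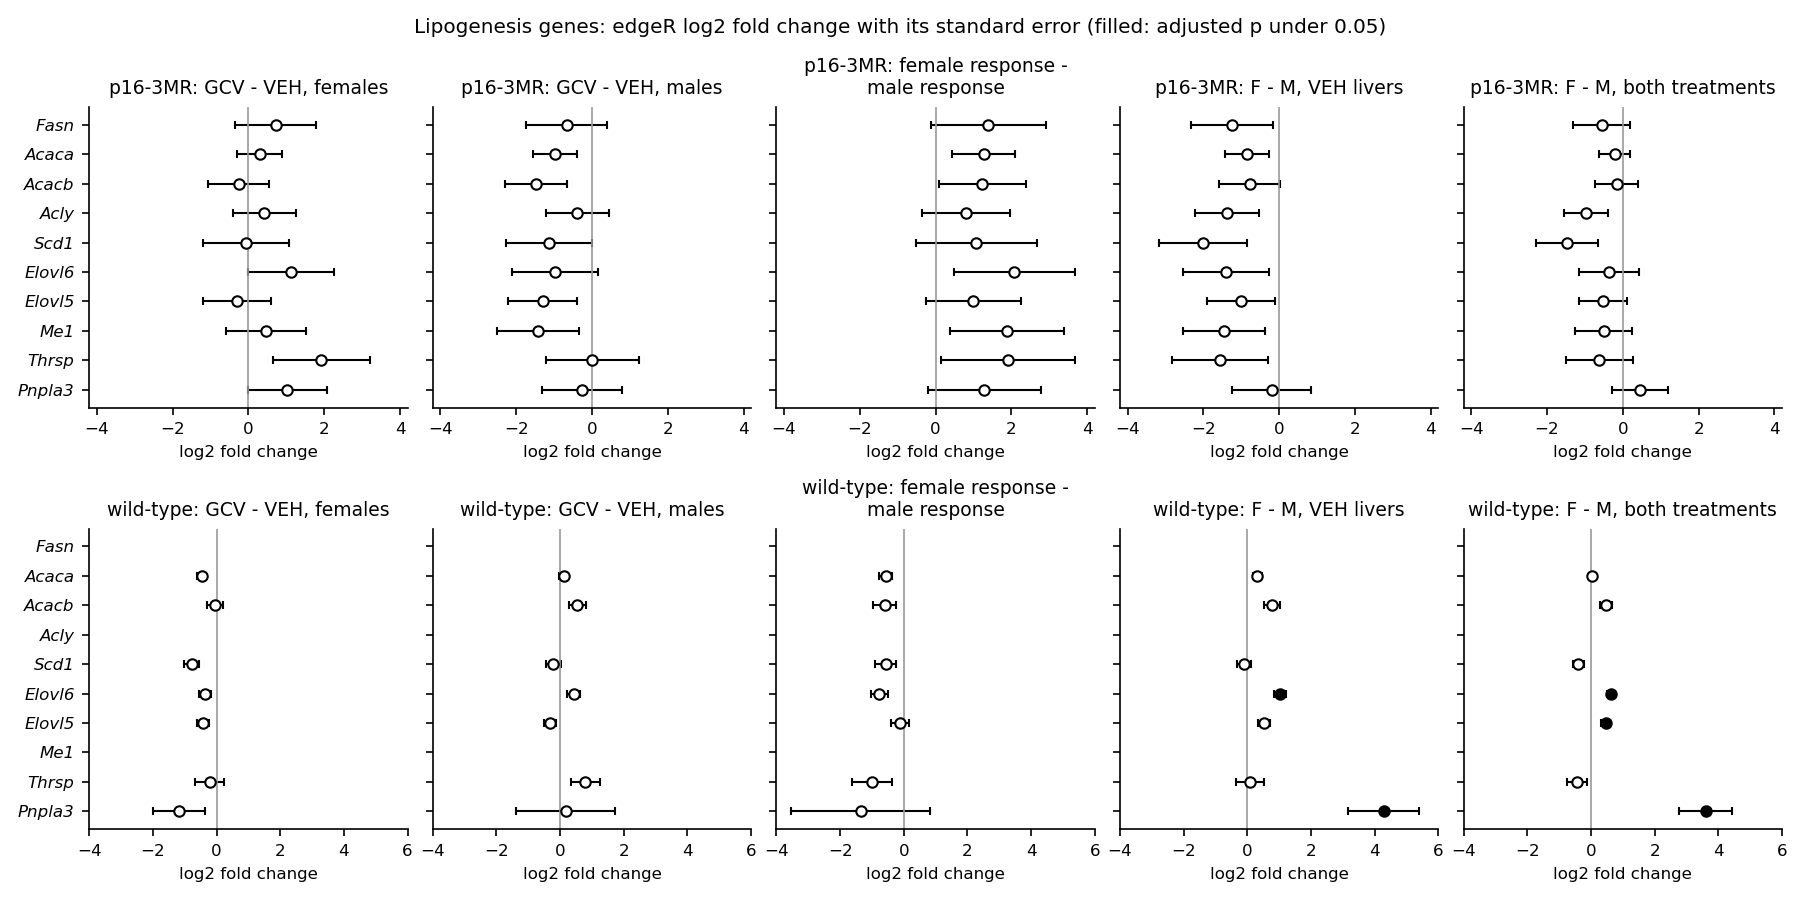
Log2 fold change of each gene in 5 comparisons of p16-3MR livers (top) and of wild-type livers (bottom), with its standard error, and filled where the adjusted p passed 0.05. The p16-3MR errors are larger than the wild-type ones for the 6 genes shown in both other than Pnpla3, and the filled points are wild-type sex differences of Elovl6, Elovl5 and Pnpla3.

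The rest of the pathway was read from lists of 15 regulators, 17 genes of substrate and NADPH supply, 14 of elongation and desaturation, 11 of glycerolipid assembly and 10 of malonyl-CoA and AMPK control. In p16-3MR livers all 67 were measured, and by edgeR 0 passed the adjusted threshold in any of the 5 comparisons. The share of all 21755 genes that passed was 0% to 0.303%. For GCV in p16-3MR females the medians of the 5 lists were -0.03, -0.04, 0.18, 0.29 and -0.04, with 1 regulator, 1 glycerolipid gene and 1 malonyl-CoA gene at an unadjusted p below 0.05, where 7.37% of all genes were. For males they were 0.05, -0.56, -0.26, -0.33 and -0.05, with 1 elongation gene and 1 glycerolipid gene at an unadjusted p below 0.05, where 1.91% of all genes were. None of these medians reached that of the 10 members in the same comparison, 0.44 in females and -0.97 in males.

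Among the regulators of p16-3MR livers, Srebf1, which encodes SREBP-1c, was 107, 56.9 and 78.2 CPM in VEH-treated females and 49.5, 13.9 and 246 CPM in GCV-treated females, and had a log2 fold change of 0.37 (SE 0.79). In males it was 68.1, 124 and 81.3 CPM with VEH and 105, 33.2 and 182 CPM with GCV. Female 33 and male 32 were the lowest and female 35 and male 34 the highest livers, as for Fasn among the treated mice. Mlxipl, which encodes ChREBP, was lowest in male 32, at 11.6 CPM, and stood at 49.1 to 178 CPM in the other 11 livers. Insig2, which holds SREBP precursors in the endoplasmic reticulum, had the largest difference between the sexes' responses of these 3, 1.40 (SE 0.75, edgeR adjusted p 0.976). Gpam, which starts triglyceride assembly, ran from 56.2 CPM in male 32 to 401 CPM in male 34. The desaturases Fads1 and Fads2 were lowest in the same 2 livers, at 71.8 and 37.8 CPM in female 33 and 74.4 and 39.4 CPM in male 32. Mid1ip1, a partner of Thrsp that promotes assembly of acetyl-CoA carboxylase, was at 0 CPM in female 33 and at 15.9 to 49.9 CPM in the other 11. Cpt1a, which admits fatty acids to the mitochondrion and is inhibited by malonyl-CoA, was 24.7 CPM in female 33 and 57.0 CPM in male 32 and reached 241 CPM in female 35.

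In wild-type livers 40 of the 67 genes had usable labels, and 0 of them passed the adjusted threshold in either treatment comparison or in the difference between the sexes' responses by edgeR, where 0.00791% of all genes in females, 0% in males and 0.00791% in the difference did. For GCV in females the medians of the 5 lists were -0.02, -0.06, -0.40, -0.0005 and -0.12. Lower at an unadjusted p below 0.05 were 1 regulator, 2 substrate genes (lowest adjusted p 0.250), 1 elongation gene and 1 glycerolipid gene. Higher were 1 regulator and 1 elongation gene, and 4.56% of all genes had such a p in either direction. Fads2 was 644, 578 and 722 CPM with VEH and 516, 496 and 489 CPM with GCV in females (log2 fold change -0.37, SE 0.13, adjusted p 1), and separated the treatment groups of wild-type females as Scd1 did. Pklr, the liver pyruvate kinase, stood at -0.13 (SE 0.16) in females and at 0.43 (SE 0.17, unadjusted p 0.0176, adjusted 0.889) in males. Insig2, Mid1ip1 and Cpt1a stood at 0.20, 0.34 and -0.12 in females and at -0.34, 0.06 and -0.11 in males. For GCV in males the list medians were -0.03, 0.05, -0.15, 0.06 and -0.05. At an unadjusted p below 0.05, 1 substrate gene and 1 glycerolipid gene were higher and 1 elongation gene was lower, where 5.06% of all genes had one.

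Sex differences were called by edgeR in VEH livers for 6 of these 40 wild-type genes, where 3.82% of all genes were called. Elovl3 was 28.8-fold lower in females (58.8, 136 and 143 CPM in males, 4.64, 1.77 and 5.17 CPM in females). Hsd17b12, which reduces the elongation intermediate, was lower in females by 0.69 on the log2 scale. On the same scale Lpin1, a phosphatidate phosphatase, was higher in females by 1.28, G6pdx, the first NADPH-producing enzyme of the pentose phosphate pathway, by 1.23, Fads2 by 0.46 and Scap, which escorts SREBP, by 0.46. Their adjusted p-values ran up to 0.0449. Over both treatments 10 of the 40 were called, where 7.94% of all genes were, Elovl3, Hsd17b12, Lpin1 and Fads2 in the same directions. The others included Pdhb, with a log2 difference of -0.31, Agpat2 (-0.34) and Prkaa2 (-0.53), lower in females, and Dgat2 (0.28), higher in females.

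The genes outside the set whose profile over 12 livers came nearest to the mean profile of the members were sought by the root mean square difference of centered log2 CPM. Among 12386 p16-3MR genes with a mean count of at least 10 they were Pklr at 0.33, Acss2 at 0.35, Srd5a1 at 0.38, Cat at 0.41 and Abcd3 at 0.42, against a standard deviation of 1.43 of the profile itself. Fasn lay at 0.35 from the mean of which it is a part, Me1 at 0.47 and Thrsp, the farthest member, at 1.17. Acss2 makes acetyl-CoA from acetate, Cat is the peroxisomal catalase, Abcd3 a peroxisomal fatty acid transporter and Srd5a1 a steroid reductase. In wild-type livers the profile itself had a standard deviation of 0.25 over 6 members and 6776 genes were compared, of which Pmvk, a mevalonate pathway kinase, at 0.097, Lyz2, at 0.12, Sirt5, at 0.13, Naglu and Lzts2, both at 0.15, came nearest. Of the 7 members, Acaca alone, at 0.18, lay closer to that mean than its own spread, and the others lay at 0.26 (Elovl6), 0.32 (Acacb), 0.44 (Elovl5), 0.53 (Scd1), 0.69 (Thrsp) and 0.88 (Pnpla3). Likeness over 12 livers is a description of these libraries.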

How the data were processed

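RNA of 24 mouse livers was measured by Smart-3SEQ, which counts the 3′ ends of transcripts. The deposited tables hold estimated counts per gene, made by the authors with Salmon (1.10.3) and tximport after Trim Galore (0.6.10) and FastQC (0.11.9) and given as whole numbers, on mm10 per the submitters' processing notes. Genes with few reads had been removed. No column was left without a liver.

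Each genotype's table was fitted whole with edgeR (4.0.16, R 4.3.3), with TMM scaling, 1 mean per group of 3 and the quasi-likelihood test, p-values being adjusted by Benjamini-Hochberg over all genes and called below 0.05. The contrasts were GCV minus VEH in each sex, their difference, and females minus males in VEH livers and over both treatments. Alternatives were DESeq2 (1.42.0), limma-voom (3.58.1), other scalings, a low-count filter, only the 6 livers compared, a replicate block and each liver left out. Log2 levels used a prior count of 2. Gene positions come from GENCODE M21 and promoters from RefSeq. Total counts of 3084517 to 7160172 per liver limit how low a level could be read, and a gene at 0 could have up to 3 counts. The scripts were tested on simulated data.

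Gene symbols were stripped of the 9 letters that wild-type labels lack, and a label was used only where 1 symbol gave it. All members were named, as were listed pathway genes called in a contrast (at most 5 per list), 10 pathway genes in any case (1 is not reported here), Cdkn2a and the 5 nearest genes per table. The members and the lists were chosen with earlier results of these data known.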

Additional observations from a re-analysis of the deposited data

How the results depend on the processing

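In p16-3MR livers 0 of 10 genes were called in each of the 5 comparisons under every alternative, including each liver left out in turn and the added fit without female 33 and male 32, which was chosen after seeing the data. Over all genes these alternatives called 0 to 215. The sign of Thrsp in p16-3MR males moved from 0.01 to -0.0032 with DESeq2, -0.0038 with DESeq2 size factors, -0.024 with the low-count filter, -2.56 with limma-voom and -0.20 with totals without mitochondrially encoded genes, and from -3.40 to 0.90 when a liver was left out. In females Scd1 and Elovl5 turned to 0.49 and 0.24 in the added fit. When a liver was left out, Scd1 ran from -1.22 to 0.44, Elovl5 from -0.80 to 0.18 and Fasn from -0.23 to 1.27 in GCV-treated against VEH-treated females, Acly from -0.29 to 1.73 in the difference between the sexes' responses, and Pnpla3 from -0.67 to 0.23 in the sex difference of VEH livers and from -0.23 to 0.94 over both treatments.

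In wild-type livers the number of members called for GCV in females rose from 0 to 2 (Scd1 and Elovl5) with only the 6 livers compared. When a liver was left out, 0 to 1 members were called for GCV in males and for the difference between the sexes' responses, 1 to 3 for sex in VEH livers and 2 to 5 for sex over both treatments. Over all genes these fits called 0 to 46, 0 to 17, 319 to 716 and 788 to 1257 in the same order. For sex in VEH livers DESeq2 and the low-count filter, which drops Pnpla3, each called 1 member (Elovl6), limma-voom 3 and totals without mitochondrially encoded genes 5. For sex over both treatments the filter called 1 and those totals 5. Among VEH livers DESeq2 called 574 genes in all, the filter 470 of 9056, limma-voom 624 and those totals 1925, against 483 in the main fit. Over both treatments the filter called 1032 of 9056 and those totals 3805, against 1004 in the main fit. Those totals shift the median of all genes by 0.37 and 0.36 in these comparisons, and under them Scd1 turned to 0.23 in VEH livers. When a liver was left out, Scd1 ran from -0.38 to 0.079 and Thrsp from -0.27 to 1.21 for sex in VEH livers, Acacb from -0.26 to 0.22 for GCV in females, and Elovl5 from -0.31 to 0.13 in the difference between the responses, where limma-voom gave Elovl5 0.043. The cause of these changes was not tested. Over all genes the calls for GCV numbered 1 in wild-type females against 17 with DESeq2 and 44 with the 6 livers, 0 in p16-3MR females against 90 with DESeq2 and 0 in p16-3MR males against 145 with limma-voom.

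With a replicate block, which treats wild-type mice of the same number as pairs, 2 members were called for GCV in females (Scd1 and Elovl5), 1 in males (Thrsp) and 3 in the difference (Elovl6, Scd1 and Thrsp), and calls over all genes rose to 106, 68 and 79. Same-numbered livers correlated at -0.045, -0.057 and 0.0018 in females and at 0.196, 0.283 and -0.066 in males. Differently numbered livers ran from -0.045 to 0.085 in females and from -0.349 to 0.170 in males. So few correlations, taken around means of 3 livers, cannot tell whether the numbers pair the mice. A block could not be fitted to the treatment comparisons of p16-3MR livers or to the sex comparisons, where the groups share no mouse numbers.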
